A study of Daphnia magna with 144 samples.

Results

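Toluene and Dichlorobenzene are 2 of the substituted benzenes among the chemicals of this series that the labels assign to an Ethanol control. Below, "the benzenes" means these 2 only, although other Ethanol groups, such as Nonylphenol, also carry a benzene ring. They were taken by chemical name, as 8 arrays out of a series of 36 chemicals with 4 arrays each. Toluene is a benzene ring that carries a methyl group. Dichlorobenzene is a benzene ring that carries chlorine atoms, and the labels do not say which isomer was used. Both are volatile, nonpolar compounds of the kind that toxicologists class as baseline narcotics, whose acute toxicity to water fleas follows from how readily they enter membranes. Aromatic rings of this kind are oxidised in animals by cytochrome P450 enzymes and then conjugated for excretion.

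The animal was *Daphnia magna*, a freshwater crustacean used in standard toxicity tests, and RNA came from whole animals. Every group was treated alike apart from the chemical: 20 daphnids, 14 days old, were kept for 24 h in 1 L of COMBO, a defined freshwater medium, with the chemical at 1/10 of the concentration lethal to the median animal (LC50). For Toluene this was 3.58 mg/L and for Dichlorobenzene 1.51 mg/L. The doses were therefore matched as a share of each LC50 and in time, but not in mass, so that compound and concentration cannot be told apart. The other 13 Ethanol groups, 52 arrays, included pesticides, hormones, chlorinated solvents and a phthalate. The labels give 4 replicates per chemical and do not say whether these were separate vessels, so p-values measure the spread between these samples, which may be technical. Fewer cells of a type and less RNA per cell cannot be told apart in whole animals.

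Expression was measured on 1-colour arrays with Cy3. Probes carry array identifiers that the files do not pair with genes, so probes are given by identifier and none by gene name or function. A level is the log2 of background-corrected, quantile-normalised intensity, and a ratio is the deposited log2 ratio to the Ethanol control. Calls rest on limma, fitted over the arrays of all 36 chemicals, with p-values adjusted over all probes and a limit of 0.05. The median foreground of the 8 arrays lay between 71 and 98, over a median background of 36 to 37, and 66.3% to 92.0% of the probes were above background. No probe was saturated on these arrays.

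In both chemicals the arrays fell into the same pairs. Replicates 1 and 4, and replicates 2 and 3, differed by a median of 0.035 to 0.056 per probe on the log2 scale, against 0.080 to 0.111 for the other pairs within a group. The bright corner spots, which hold control oligonucleotides, averaged 1791 and 1882 on Toluene arrays 1 and 4 and 1090 and 907 on arrays 2 and 3. On the Dichlorobenzene arrays they averaged 1538 and 1396 on 1 and 4 and 819 and 786 on 2 and 3. Counts within these pairs are given beside the counts that they moved by over 1.5 times.

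The first question was how far each chemical moved expression from the Ethanol control. Toluene was among the Ethanol groups with the smallest shift and Dichlorobenzene among those with larger ones. In Toluene the standard deviation of the ratios across probes was 0.479, 0.529, 0.553 and 0.495 on the 4 arrays. In Dichlorobenzene it was 0.895, 0.964, 0.930 and 0.913, so that every Dichlorobenzene array had a wider spread than every Toluene array. Of 13481 probes, 3636 were called in Toluene (27%), 1575 higher and 2061 lower. In Dichlorobenzene 8172 were called (60.6%), 3902 higher and 4270 lower. Changes of 1 or more (log2) were left in 385 probes (2.86%) for Toluene, 164 higher and 221 lower, and 2248 (16.7%) for Dichlorobenzene, 1029 higher and 1219 lower. The median absolute ratio was 0.18 in Toluene and 0.39 in Dichlorobenzene. The bar chart of probes past both limits places Toluene second from the bottom of the 15 Ethanol groups, above 2-chloro vinyl ether with 316, and Dichlorobenzene below Trichloroethylene with 2511, Chloroform with 2803 and Methoxychlor with 3153.

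**Figure D1:**
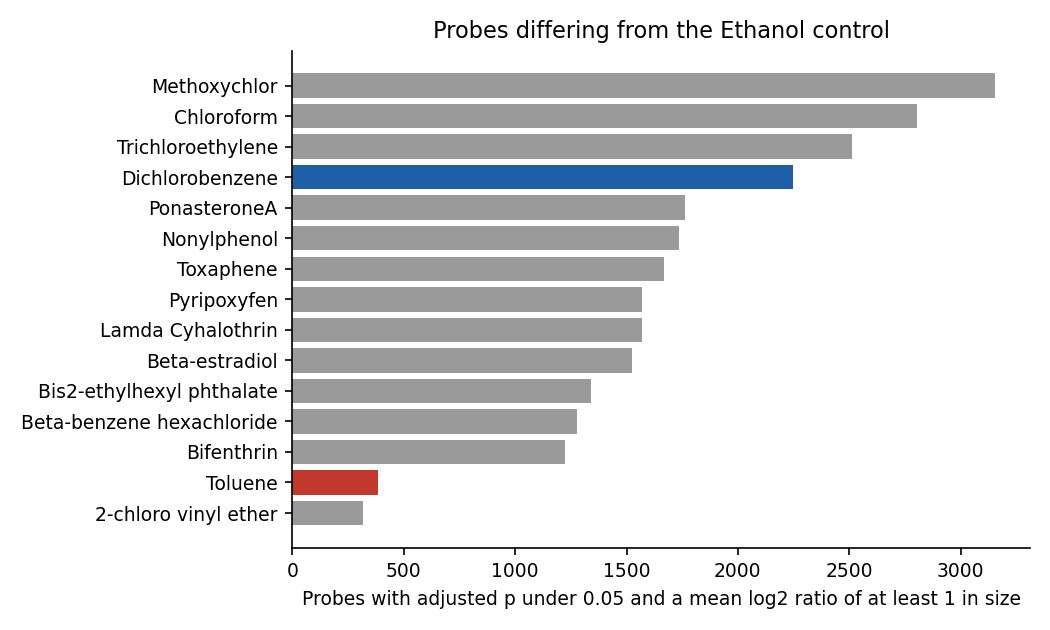
Number of probes called against the Ethanol control with a mean log2 ratio of at least 1 in size (horizontal axis) in each of the 15 Ethanol groups, 4 arrays per group. Toluene (red, 385 probes) lies second from the bottom and Dichlorobenzene (blue, 2248 probes) below 3 others at the top.

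The control enters these ratios as a fixed reference, so its own spread is in no p-value which can raise the counts. The lead of Dichlorobenzene over Toluene in called probes depended on the scale: with the ratios quantile normalised, which gives every array the same spread, 7815 probes were called in Toluene and 8215 in Dichlorobenzene, and with the array pairs 1 and 4 and 2 and 3 averaged, 705 and 5917.

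Among probes above background on all arrays of the group, the largest rise against the control was the same probe in both chemicals. DM05344 had ratios of 7.44, 7.44, 7.53 and 7.42 in Toluene and of 8.68, 8.58, 8.56 and 8.68 in Dichlorobenzene. The arrays of a chemical lay close together, and the adjusted p was 3.25e-26 and 3.84e-32. The reference implied by these ratios was near background, with a log2 net signal of 0.89, and 12 of the other 13 groups were also called higher. Next in Toluene came DM07698, with a mean ratio of 6.52 ± 0.14 (SD, n = 4), and in Dichlorobenzene DM01737, with 6.36 ± 0.05 against 0.85 ± 0.17 in Toluene.

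The largest fall was also shared by both. DM11495 had ratios of -5.46, -5.61, -5.50 and -5.49 in Toluene and of -8.13, -7.81, -7.84 and -8.14 in Dichlorobenzene, with adjusted p-values of 6.28e-56 and 7.13e-73. It was called lower in 12 of the other 13 groups. DM06885 followed in Toluene at -5.43 ± 0.27 and DM05269 in Dichlorobenzene at -6.69 ± 0.27. These were called lower in 13 and 12 of the other groups, so the extremes against this control were common to most Ethanol groups and not to the benzenes alone.

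The second question was which changes both benzenes shared with few of the other Ethanol groups. Against the control, 77 of the 13481 probes were higher and 58 lower in both by at least 1. Of these 135, only 10 higher and 12 lower were called the same way, with a change of at least 1, in at most 2 of the other 13 groups (0.0742% and 0.089% of the probes tested). With the ratios quantile normalised the same rule gave 108 probes, 41 higher and 67 lower, and kept 13 of the 22. Within replicates 1 and 4 of both benzenes it gave 18, and within replicates 2 and 3 it gave 34. All 15 groups shared 7 of the higher and 9 of the lower probes. All these comparisons share the same control. The other groups that carried the 22 probes most often were Toxaphene, with 11, and Lamda Cyhalothrin, with 9, followed by Chloroform with 4. Neither 2-chloro vinyl ether, Beta-estradiol, Beta-benzene hexachloride, Methoxychlor nor PonasteroneA carried any of them.

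**Figure D2:**
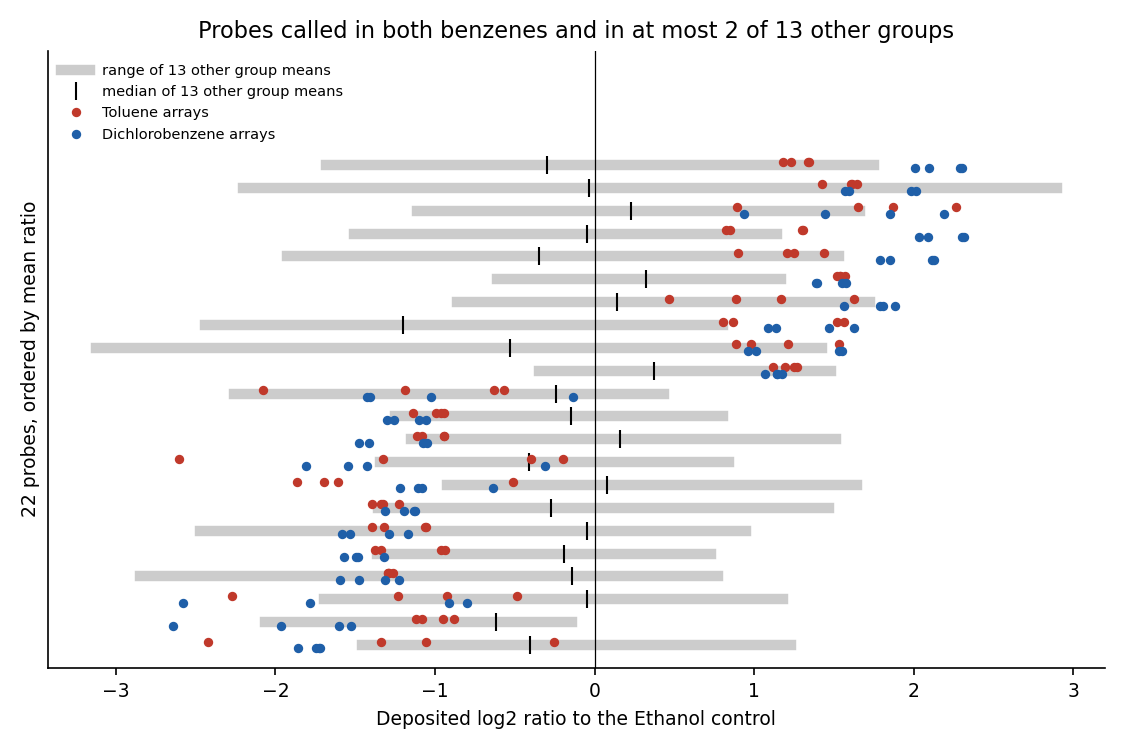
Deposited log2 ratios to the Ethanol control (horizontal axis) of 22 probes, 1 row per probe. These were called, with a change of at least 1, in both benzenes and in at most 2 of the 13 other groups. Points are single arrays of Toluene (red) and Dichlorobenzene (blue), grey bars span the 13 other group means and ticks mark their median. The 10 upper rows are higher and the 12 lower rows lower in both benzenes.

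The plot of these ratios by array shows all 22 probes, of which 9 of the 10 higher and 6 of the 12 lower were above background on all 8 arrays. In these 9 higher probes the mean ratio ran from 1.04 to 1.57 in Toluene and from 1.13 to 2.19 in Dichlorobenzene. In the 6 lower probes it ran from -1.32 to -1.01 in Toluene and from -1.47 to -1.18 in Dichlorobenzene. The ratios of the remaining probes rest on signals not above background on at least 1 array and are not summarised. Of the 10 higher probes 4 also differed between the benzenes themselves, and of the 12 lower probes 0 did by limma. That test used levels, in which the offset of 50 narrows differences near background, so it cannot decide for the dim probes. In the dim DM08358 the mean ratios were -1.01 in Toluene and -1.93 in Dichlorobenzene, while the levels differed by 0.12.

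DM10271 had ratios of 1.61, 1.43, 1.61 and 1.64 in Toluene and of 1.57, 1.98, 2.02 and 1.59 in Dichlorobenzene. Both groups lay above the control on every array and overlapped each other. The adjusted p was 8.01e-06 for Toluene and 7.21e-08 for Dichlorobenzene, and the difference between them was -0.12 with a 95% interval from -0.63 to 0.39. Bis2-ethylhexyl phthalate and Toxaphene were the others called higher by at least 1, and rose further, with mean ratios of 2.34 and 2.90. Lamda Cyhalothrin was next, at 0.83. DM11871 had the largest mean of the 10 in Toluene, 1.67 ± 0.58, and 1.60 ± 0.54 in Dichlorobenzene, but it was above background on only 2 of the 4 Toluene arrays and on 1 of the 4 Dichlorobenzene arrays.

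Among the lower probes, DM07007 had ratios of -1.30, -1.29, -1.26 and -1.29 in Toluene and of -1.31, -1.48, -1.59 and -1.23 in Dichlorobenzene. The groups again overlapped. The adjusted p was 3.02e-06 and 6.65e-08, and the interval of the difference ran from -0.45 to 0.68. Lamda Cyhalothrin and Nonylphenol were the others called lower by at least 1, and fell further, with mean ratios of -2.85 and -2.10. DM04878 had -1.06, -1.34, -2.43 and -0.25 in Toluene and -1.73, -1.74, -1.86 and -1.72 in Dichlorobenzene, and was above background on 1 of 4 and 0 of 4 arrays, so its fall has only a bound. Without Toluene replicate 3 its adjusted p in Toluene was 0.113.

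The same rule was applied to levels, with each Ethanol group set against the mean of the others. Toluene differed from the other 13 groups in 7543 of 14222 probes (53%) and Dichlorobenzene in 6892 (48.5%), but by at least 1 in only 269 (1.89%) and 563 (3.96%). A difference of at least 1 in the same direction was found in 30 higher and 9 lower probes, of which 12 and 2 were shared with at most 2 of the other 13 groups (0.0844% and 0.0141%). Of these 14 probes 7 were also among the 22 above. Direction here depended on the scaling: with median centring in place of quantile normalisation, 1 probe was higher and 29 were lower, and 3 of the 14 were kept. Within replicates 1 and 4 there were 14 such probes, and within 2 and 3 there were 29.

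Against the control 1 of the 10 higher probes, DM05201, was called higher by at least 1 in none of the other 13 groups. Its highest mean ratio among them was 0.80, in Beta-estradiol. Likewise 1 of the 12 lower probes, which was dim, was called lower by at least 1 in none of them. The levels of DM05201 were 8.89, 9.58, 9.62 and 8.94 on the Toluene arrays and 9.10, 9.52, 9.63 and 9.16 on the Dichlorobenzene arrays. The arrays split as the pairs described above, with 2 and 3 high in both chemicals. The other 13 group means ran from 6.61 in Trichloroethylene to 8.93 ± 0.08 in Beta-estradiol, with a median of 7.29. Both benzene means lay above all of them, although Toluene array 1 was below the Beta-estradiol mean. The level was 1.71 above the mean of the other groups, the contrast by which the probe was named. In the ratios, DM05201 was 1.19 ± 0.41 above the control in Toluene and 1.33 ± 0.26 in Dichlorobenzene. It was called lower by at least 1 in 7 of the other groups. The benzenes differed in it by -0.09, with an interval from -0.38 to 0.19.

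DM05344, described above for its ratios, had levels of 9.06, 9.27, 9.32 and 9.05 in Toluene and of 9.98, 9.99, 9.95 and 9.99 in Dichlorobenzene. Pyripoxyfen stood higher still at 10.10, and Bifenthrin, at 9.59, lay above Toluene. On the lower side, DM11805 had 8.57, 8.72, 8.71 and 8.55 in Toluene and 8.58, 8.24, 8.29 and 8.56 in Dichlorobenzene, against a median of 9.78 in the other groups. It was 1.11 below them on the log2 scale, the contrast by which the probe was named, and only Chloroform at 8.61 was as low as Toluene at 8.64. DM04714 averaged 7.79 ± 0.13 in Toluene and 7.95 ± 0.04 in Dichlorobenzene, against 8.83 for the median of the others, with Chloroform at 7.10 and 2-chloro vinyl ether at 7.71 lower still. Its ratio to the control was above 0, at 0.20 ± 0.16 in Toluene, which was not called (adjusted p = 0.353), and 0.45 ± 0.07 in Dichlorobenzene (adjusted p = 0.00778).

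With both benzenes as one set and the chemical as the replicate, no probe passed. With limma on the 15 chemical means, 0 of 14222 probes were called (0%). An unadjusted p under 0.05 was found in 846 of the 14222, a limit that about 5% of probes pass by chance alone. On the arrays, 7673 probes were called (54%), of which 155 (1.09%) differed by at least 1, with 111 higher and 44 lower.

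A further description, chosen after the values were seen, asked where both benzene means lay beyond all 13 other means. This held for 78 probes above (0.548%) and 151 below (1.06%), by at most 0.36 and 0.26. If the 15 groups fell in random order, 2 given groups would be the highest 2 in a fraction of 0.00952 of probes. The same fraction applies to the lowest 2. Under quantile normalisation the share above was smaller than this and the share below slightly larger. On that scale these counts alone therefore do not set the benzenes apart from the other groups, and the probes named next are descriptions. DM09108 had levels of 7.81, 7.79, 7.76 and 7.78 in Toluene and of 7.83, 7.90, 7.84 and 7.82 in Dichlorobenzene. The other means ran from 6.83 to 7.42 ± 0.15 in Methoxychlor, so the benzenes stood apart from all of them by a small step with a narrow spread. DM00478 was the probe furthest below, at 7.94 ± 0.09 in Toluene and 7.92 ± 0.17 in Dichlorobenzene, with the next group, 2-chloro vinyl ether, at 8.20. Against the control, DM09108 had a ratio of 0.17 ± 0.03 in Toluene, which was not called (adjusted p = 0.258), and of 0.31 ± 0.03 in Dichlorobenzene, while the median of the other groups was -0.81. With median centring 250 probes lay above and 512 below. Both are larger shares than the random-order fraction, so this comparison depended on the scaling, and no test of it was made. Under quantile normalisation, both directions together came to 273 probes within replicates 1 and 4 and to 517 within 2 and 3.

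The third question was how the 2 chemicals differ from each other, which was the single pair compared. Of 14222 probes, 6870 were called (48.3%), 3585 higher in Toluene and 3285 higher in Dichlorobenzene. A difference of at least 1 was called in 839 probes (5.9%), 419 higher in Toluene and 420 in Dichlorobenzene. The 95% interval of the difference lay within ±0.5 for 10120 probes (71.2%), wholly beyond 0.5 in size for 1389 and wholly beyond 1 for 523. Of the 9081 probes above background on all 8 arrays, the interval was within ±0.5 for 5367 (59.1%). For 1253 of them it lay wholly beyond 0.5 in size, and for 490 wholly beyond 1. For the others the interval covers differences both below and above 0.5. Within replicates 1 and 4 of both groups 4748 probes were called and within 2 and 3 5579. With median centring the count was 3525, with 43.5% higher in Toluene against 52.2%, and with the array pairs averaged 3116.

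**Figure D3:**
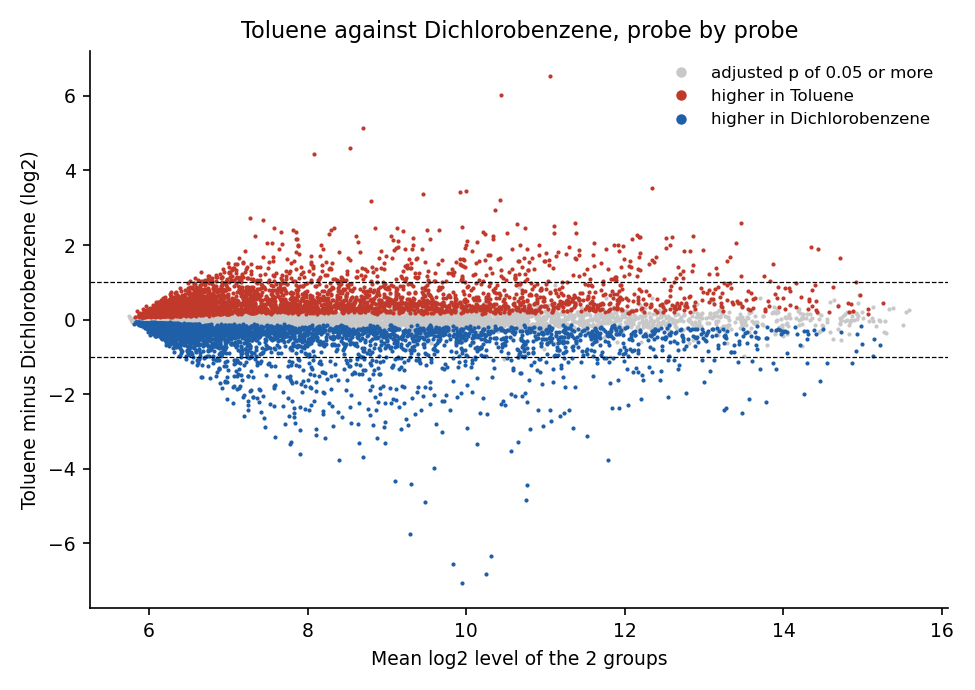
Level in Toluene minus level in Dichlorobenzene (vertical axis, log2) against the mean level of both groups (horizontal axis, log2) for 14222 probes. Red and blue points are the 3585 and 3285 probes called higher in Toluene and in Dichlorobenzene, grey points were not called, and dashed lines mark a difference of 1.

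The plot of differences against level shows that most called probes lay within 1 of equality and a few lay beyond 6. DM11644 had levels of 14.25, 14.45, 14.40 and 14.19 in Toluene and of 7.90, 7.70, 7.69 and 7.86 in Dichlorobenzene. The groups were far apart, with a difference of 6.53 (standard error 0.11, adjusted p = 1.52e-79). DM04057 had 13.57, 13.16, 13.50 and 13.54 in Toluene and 7.23, 7.75, 7.53 and 7.20 in Dichlorobenzene, a difference of 6.01. The control was near Toluene in both probes: the Toluene ratio was 0.93 ± 0.09 for DM11644 and -0.17 ± 0.25 for DM04057, and the Dichlorobenzene ratios were -6.05 ± 0.14 and -6.66 ± 0.38.

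In the other direction both chemicals left the control. DM06490 had levels of 6.43, 6.51, 6.38 and 6.35 in Toluene and of 13.74, 13.16, 13.25 and 13.76 in Dichlorobenzene, a difference of -7.06 (standard error 0.20, adjusted p = 6.3e-59). Its ratios averaged -4.04 ± 0.20 in Toluene and 4.11 ± 0.33 in Dichlorobenzene, so the control lay between the 2 chemicals. DM01839 had the same arrangement, with -3.34 ± 0.03 and 4.24 ± 0.11. Neither probe was particular to the pair: across the other 13 groups the mean level of DM06490 ran from 6.31 in 2-chloro vinyl ether to 13.20 in Methoxychlor, and that of DM11644 from 6.74 in Toxaphene to 14.21 in Beta-estradiol.

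Set against the other Ethanol groups on its own, Dichlorobenzene had probes that stood apart and Toluene had none by the same margin, a description chosen after the values were seen. Dichlorobenzene lay above all 14 other group means by at least 1 in 24 probes (0.169%) and below them in 3 (0.0211%). Toluene did so in 0 and 0. By some margin it was the highest or the lowest group in 2667 probes (18.8%, against 3.71% to 32.3% over the 15 groups). Probes set apart by at least 1 were not particular to Dichlorobenzene. In either direction there were 59 in Chloroform, 57 in Methoxychlor, 49 in PonasteroneA, 25 in Toxaphene and 24 in Trichloroethylene, against its 27. All 24 probes were above background on the 4 Dichlorobenzene arrays. Their ratios to the control ran from 1.44 to 5.42 in Dichlorobenzene, with a median of 3.53, and from -0.52 to 1.38 in Toluene, with a median of 0.21.

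DM01650 was the brighter of the 2 probes that stood furthest out. Its levels lay between 12.92 and 13.07 on the 4 arrays of Dichlorobenzene and between 8.47 and 8.65 in Toluene, and the next Ethanol group was Trichloroethylene at 11.22. It lay 3.76 above the mean of the other 13 groups, which is a description, since the probe was chosen for standing above them. DM01685 had 9.41, 9.47, 9.36 and 9.51 in Dichlorobenzene and between 6.05 and 6.24 in Toluene, and again Trichloroethylene was next, at 7.39. Among the 24 probes the next highest group was Chloroform in 8 and Trichloroethylene in 6, then Lamda Cyhalothrin in 5, Pyripoxyfen in 4 and Methoxychlor in 1. Over the 995 probes in which Dichlorobenzene was the highest by any margin, Chloroform was next in 18.7%, Lamda Cyhalothrin in 15.7%, Trichloroethylene in 15.2%, Methoxychlor in 5.63% and Pyripoxyfen in 4.02%.

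This standing held among Ethanol groups and not over the series. In the 21 groups with other vehicles the median level of DM01650 was 12.49, close to Dichlorobenzene, and Chromium reached 14.95. For DM01685 that median was 8.98, and Chromium reached 11.59. Of the 24 probes, Dichlorobenzene was the highest of all 36 groups in 7. With median centring it was still the highest Ethanol group in all 24, by at least 1 in 8.

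The other probes that led Dichlorobenzene against the other 13 groups also set it apart from Toluene. DM09557 averaged 13.13 ± 0.25 in Dichlorobenzene and 6.55 ± 0.06 in Toluene, so that its difference from the other groups was 3.55 in one and -3.02 in the other. DM11692 and DM12123 lay furthest below the mean of the other 13 groups. They stood at 7.76 ± 0.11 and 8.27 ± 0.15 in Dichlorobenzene against 11.14 ± 0.10 and 11.72 ± 0.02 in Toluene. In DM11692 Nonylphenol was lower still, at 6.05. The 2 probes in which Dichlorobenzene lay furthest below every other Ethanol group were DM11876, at 6.10 ± 0.07 against 7.24 in Lamda Cyhalothrin, and DM07141, at 7.90 ± 0.04, with Chloroform next. DM11876 had net signals of 11, 9, 5 and 13 in Dichlorobenzene and was above background on 3 of the 4 arrays, so its fall has only a bound.

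In Toluene the largest difference from the other 13 groups was that of DM11644, described above, at 4.62. Its mean was 14.32 in Toluene, with Beta-estradiol next at 14.21 and Bifenthrin at 14.19. In this probe 2-chloro vinyl ether, at 12.06, had rank 6 of the 15 groups. DM11146 followed at 4.21. It had levels of 14.05, 14.15, 14.17 and 14.10 in Toluene, against 14.00 in 2-chloro vinyl ether and a median of 10.44 over the other 13 groups. On the lower side stood DM06490 and DM01839, described above, with 2-chloro vinyl ether at 6.31 and 6.97. The probe furthest above every other group was DM06694, at 8.93, 8.95, 8.92 and 8.96 in Toluene with 2-chloro vinyl ether next at 7.97, and DM01260 had the same order, at 10.38 ± 0.09 and 9.48. Dichlorobenzene stood at 6.79 ± 0.39 in DM06694 and at 8.50 ± 0.46 in DM01260.

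**Figure D4:**
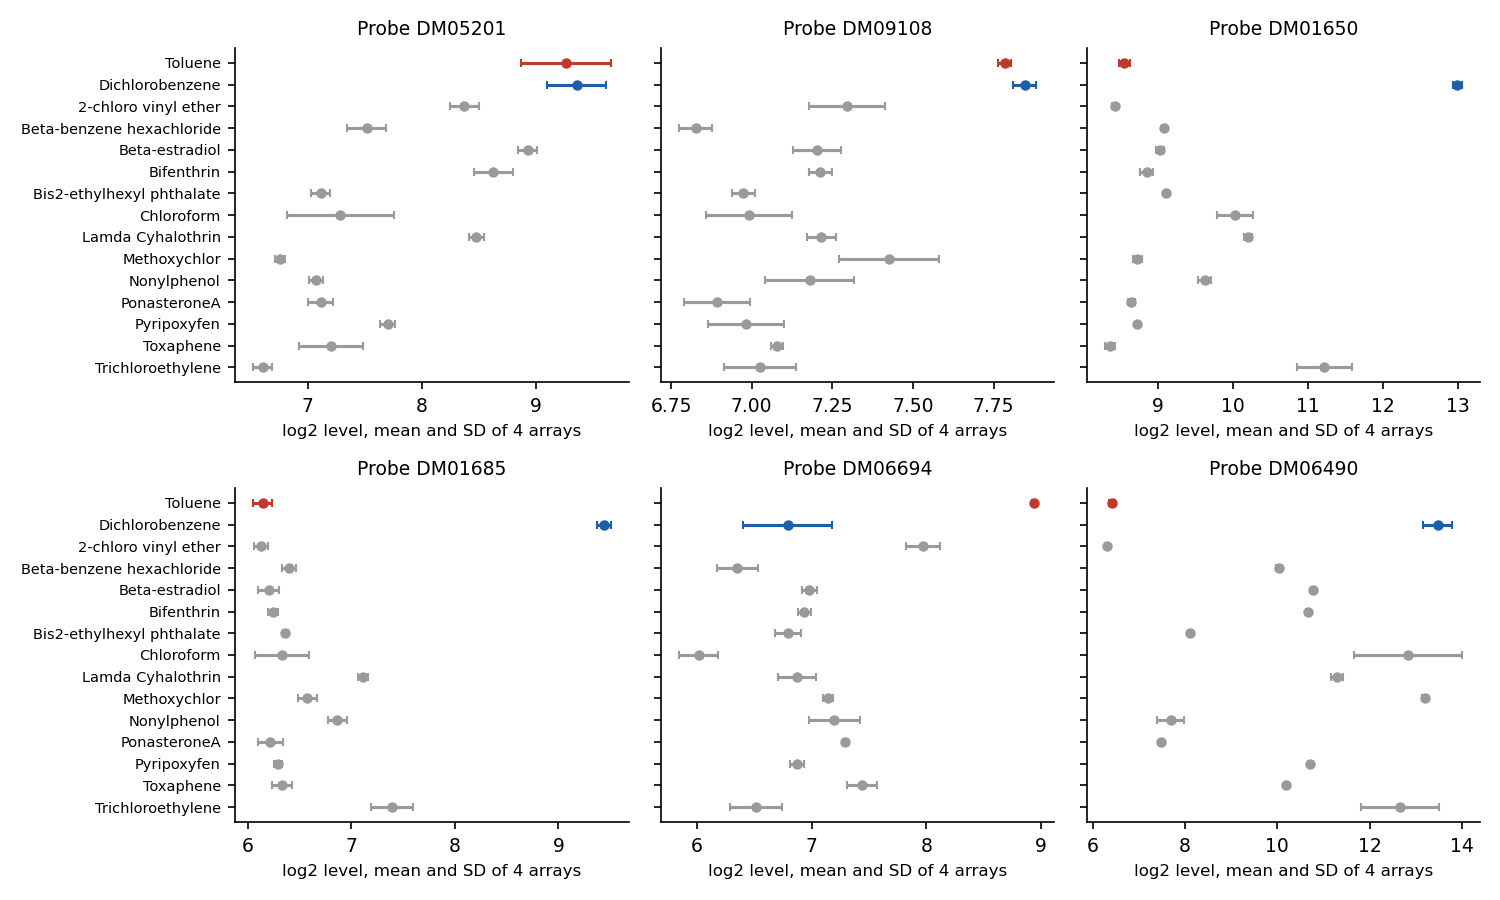
log2 level of 6 probes in the 15 Ethanol groups (points are means and bars the SD of 4 arrays), with Toluene in red and Dichlorobenzene in blue. The upper row shows DM05201 and DM09108, in which both benzene means lie above the other groups, and DM01650, high in Dichlorobenzene. The lower row shows DM01685, high in Dichlorobenzene, DM06694, high in Toluene, and DM06490, in which the benzenes lie at opposite ends.

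The plot of levels by group sets these patterns side by side. In DM05201 and DM09108 both benzenes lie to the right of every other group mean. In DM01650 and DM01685 only Dichlorobenzene does, with Toluene among the lowest groups.

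Over all probes, the benzenes were not nearest to each other under quantile normalisation. The median absolute difference between their mean levels was 0.155, which ranked 65 from the smallest among all pairs of the 15 Ethanol groups, whose median was 0.140 and range 0.062 to 0.260. From Toluene, 2-chloro vinyl ether was nearest at 0.081 and Dichlorobenzene was the sixth of 14. From Dichlorobenzene, Lamda Cyhalothrin was nearest at 0.108 and Toluene was the ninth of 14. The order depended on the scaling: with median centring the distance was 0.133, rank 27, and Dichlorobenzene became the group nearest to Toluene, with 2-chloro vinyl ether seventh at 0.177. With the deposited ratios the rank was 59, and with plain background subtraction 58.

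**Figure D5:**
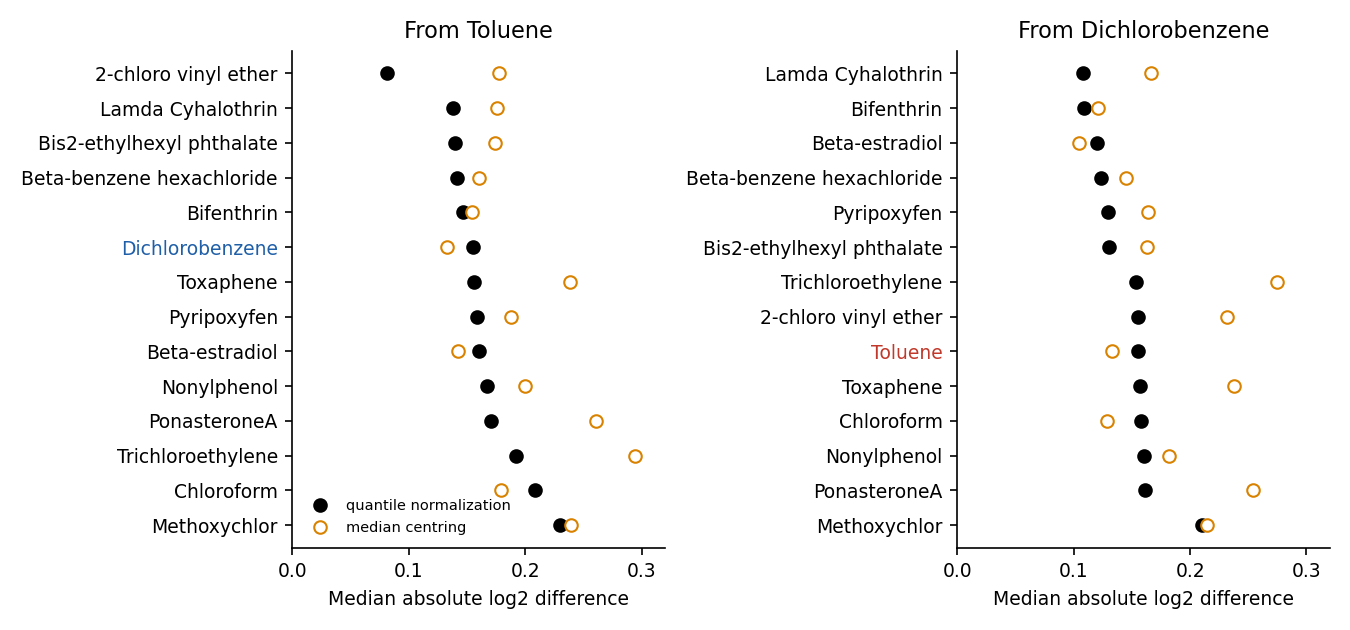
Median absolute log2 difference between group means (horizontal axis) from Toluene (left) and from Dichlorobenzene (right) to each of the 14 other Ethanol groups, with quantile normalisation (filled) and median centring (open). From Toluene, Dichlorobenzene lies at 0.155 and 0.133, and 2-chloro vinyl ether at 0.081 and 0.177.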

How the data were processed

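Per the file headers, each spot of the scanner tables has a median foreground and a median local background intensity, deposited without normalisation. The deposited value table holds log2 ratios, whose making the sources used here do not describe beyond naming limma, per the submitters' processing notes. For 5074 bright probes the 4 value columns of each benzene matched its own 4 arrays (lowest r = 0.988), and the slope of the Toluene minus Dichlorobenzene difference in the scanner values on that in the ratios was 1.01. The reference implied for the 2 benzenes was nearly the same (r = 0.9998 across probes). The direction is therefore chemical over control; the centring is unknown, and array medians of the ratios were near 0.

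The 20 columns of 5 control tables match no sample and were not used here, so the Ethanol control enters through the ratios (mean of 4 against 0). Scanner values were corrected with normexp (offset 50), put on the log2 scale, averaged over duplicate spots, quantile normalised over all arrays, and stripped of 116 probes with a bad-spot flag, leaving 14222 of 14338. Above background means a net signal over the mean of 77 negative control spots by more than 3 of their SDs. One limma (3.58.1, R 4.3.3) fit of 36 group means with 108 residual degrees of freedom gave moderated tests with Benjamini-Hochberg adjustment, so each p uses a spread pooled over all chemicals. Precision is limited by the number of arrays.

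The chemicals, probe rules and lists were chosen with earlier results of these data known. Gene lists could not be used, because probes are not paired with genes here. The first 2 probes in each direction were named: shared ones by the smaller of both mean changes, with the same sign on all 8 arrays; against the control by mean ratio, with the same sign and above background on all 4 arrays; for the pair by difference, with groups that did not overlap and the higher group above background and unsaturated; against the other groups by difference; and those beyond all other groups by the gap to the next group. "Few" means at most 2 of the other 13 Ethanol groups. Same-numbered arrays of Toluene and Dichlorobenzene deviated together from their group means (r = 0.316 to 0.343 in all 4 pairs). Arrays 1 with 4 and 2 with 3 across the groups correlated nearly as much (0.238 to 0.294). The main comparison of these 2 groups treated the arrays as unpaired, and the replicate numbers entered a fit only as the replicate block below. The alternatives changed scaling, background, probe filter, samples fitted, replicate block, replicates and thresholds.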

Additional observations from a re-analysis of the deposited data

Results flagged for a closer look

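Among the values of the named probes and the array measures, a single array stood apart from the other 3 of its group in 7 of 138 sets of 4 (5.07%), where chance alone gives about 5%. On Toluene replicate 4 the level of DM04770 was 5.70 against 9.86 to 9.87 on the others, while the deposited ratio of the same array was 0.14 against 0.19 to 0.20, so the 2 deposited forms differ at this spot, and the probe is not used as a result above. Toluene replicate 2 had 72.9% of probes above background against 88.9% to 92.0%, and its threshold for counting a spot as above background was a net intensity of 15.7 against 4.37 to 6.28. Small gaps set apart DM10271 on Toluene replicate 2 (ratio 1.43 against 1.61 to 1.64), DM04878 on Dichlorobenzene replicate 3 (-1.86 against -1.74 to -1.72) and DM01839 on Toluene replicate 4 (-3.29 against -3.36 to -3.35). The cause of these gaps was not tested.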

How the results depend on the processing

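Of 166 recomputed summary values, 134 stayed within 1.5 times the value above (or, for the distance, within 1 SD over array pairs), and 379 of 382 recomputed differences of 22 named probes kept their direction and call. The 3 exceptions were all DM04878 in Toluene: adjusted p = 0.0572 in a fit of its 4 arrays, 0.113 without replicate 3 and 0.0703 with array pairs averaged, by limma. The causes were not tested.

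Quantile normalisation of the ratios gave 7815 called probes for Toluene and 108 shared with few groups, of which 13 of the 22 were kept. Median centring gave 3525 for the pair, 30 for the shared differences in level, 0.1332 for the distance, 15 and 762 for probes in which Dichlorobenzene, or both benzenes, lay beyond every other group, and 31.5% higher calls for Toluene against the others instead of 46.4%. Plain subtraction gave 40 shared differences, a distance of 0.2884 and 63 probes for Dichlorobenzene. The deposited ratios gave 49, 0.4021 and 62. A filter for probes above background on at least 4 of 8 arrays gave a distance of 0.1919. A minimum change of 1 left 385, 2248, 839, 269, 563 and 155 probes in the order control (Toluene, Dichlorobenzene), pair, others (Toluene, Dichlorobenzene, both). With 0 other groups allowed the shared counts were 2 and 1, with at most 4 they were 50 and 31, and with a minimum change of log2(1.5) they were 60 and 91.

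With one array left out the counts ran from 2710 to 3152 and from 7385 to 7684 against the control, from 6345 to 6609 for the pair, from 6597 to 7014, 5913 to 6524 and 7204 to 7468 against the others, and 0 throughout on chemical means. The shared counts ran from 18 to 25 and from 13 to 17, the distance from 0.1532 to 0.1624, and the probes beyond every other group from 27 to 29 and from 214 to 278. In the replicate block the pair gave 6864 probes instead of 6870. The block ended no call of a named probe and moved none of the 6 counts it was run for by over 1.5 times. It fits a replicate effect common to all 36 groups. It therefore cannot remove a split of arrays particular to the benzenes, and no conclusion is drawn from it.

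The following were chosen after seeing the data. Within replicates 2 and 3 of both benzenes the shared counts were 34 and 29, the distance 0.1745 and the probes in which both lay beyond all others 517. With array pairs averaged, 705 probes were called for Toluene and 3116 for the pair. The probes beyond every other group were counted, and recomputed, only then.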

Other observations

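Over all 36 groups, the 2 probes that stood highest in both benzenes among Ethanol groups were also high in 20 hydroxyecdysone, the arthropod moulting hormone, given in medium. In DM05201 that group ranked first of 36, with Dichlorobenzene and Toluene next. DM09108 was 7.64 there, next below Dichlorobenzene and Toluene, which ranked first and second of 36. PonasteroneA, a related ecdysteroid given in ethanol, had 7.11 in DM05201 and 6.89 in DM09108, among the lower Ethanol groups. These are levels of 4 arrays each, chosen after the values were seen, and no test was made across vehicles.

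DM06490, DM01839, DM09557 and DM08009 were low together in Toluene and high together in Dichlorobenzene. DM08009 averaged 7.14 ± 0.06 in Toluene, below every other group of the series, and 13.50 ± 0.04 in Dichlorobenzene. In the 21 groups with other vehicles the medians were 14.11, 13.75, 13.82 and 13.84, so high levels were the usual state there and Toluene, with 2-chloro vinyl ether, lay at the low end.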
